A study of Mus musculus with 12 samples.

Results

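Transcripts of 10 genes of the endoplasmic reticulum (ER) stress and unfolded protein response were examined in the cortex of 12 mice. The genes were Atf4, Ddit3, Xbp1, Hspa5, Hsp90b1, Dnajb9, Calr, Canx, Pdia3 and Pdia4, and they were chosen by name. The rule took every non-control array probe that carried one of these names, which gave 12 probes of 39429, or 10 gene names of 29608. Atf4 and Dnajb9 had 2 probes each and the other genes had 1. A filter that removed spots dimmer than 2 times their local background in any mouse kept 9 of the 10 genes and 11 of the 12 probes, and it removed Pdia4, which is described separately.

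RNA came from 3 groups of 4 female mice of about 12 weeks, all killed in diestrus. The MRL/lpr mice carry lpr, a loss-of-function mutation of the death receptor gene Fas on the MRL background, and develop a lupus-like autoimmune disease. The Fn14ko mice, labelled Fn14koMRL, carry lpr too and lack Fn14, the receptor of the cytokine TWEAK. They were littermates of backcross generation 8 and were bred with the MRL/lpr mice at 1 company. The MRL/+ mice, labelled MRL/MpJ, have the MRL background without lpr and came from another breeder, so lpr and the breeder cannot be told apart in the comparisons with MRL/+. No group lacked Fn14 without carrying lpr. The comparisons asked how cortical transcripts differed between lupus-prone and control mice, with and without Fn14.

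The ER folds proteins that are secreted or placed in membranes, a large load in neurons. When unfolded protein accumulates, the membrane sensors PERK, IRE1 and ATF6 start the unfolded protein response. PERK slows translation while favouring that of ATF4, a transcription factor whose targets include Ddit3, which encodes the pro-apoptotic factor CHOP. IRE1 splices the Xbp1 mRNA so that it encodes an active factor, and ATF6 is cut to release another. Both raise the transcription of ER chaperones, of which Hspa5 (BiP) is the best known. An array probe measures the amount of a transcript and shows neither the splicing of Xbp1 nor the cleavage of ATF6 nor any protein.

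A sequence feature of promoters was shared by 4 of the 10 genes, all of them chaperone genes. The ER stress response element (ERSE), CCAAT and CCACG with 9 bases between them, is the site through which ATF6 acts together with NF-Y. It was sought on both strands in RefSeq promoter windows of 300 bases on build GRCm38.p6, from 250 bases before to 50 after each gene start. The element was found in 39 of 32851 windows, or 0.119%, and in 4 of the 10 genes, Hspa5, Hsp90b1, Calr and Canx. The matches are printed because these chaperones are the textbook targets of the response. Since the genes were named for this response, the count beside the share of all windows is no test. Capitals mark the fixed letters of the element and 10 flanking bases are shown on each side, all read 5′ to 3′ along the strand that holds the match.
Hspa5: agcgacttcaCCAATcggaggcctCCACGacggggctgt
Hsp90b1, upstream match: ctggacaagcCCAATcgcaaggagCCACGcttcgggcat
Hsp90b1, downstream match: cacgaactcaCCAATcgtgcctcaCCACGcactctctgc
Calr: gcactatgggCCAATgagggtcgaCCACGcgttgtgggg
Canx: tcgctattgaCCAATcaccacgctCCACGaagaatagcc

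The Hspa5 match lies at chr2:34772025-34772043, 46 bases before the gene start. The Hsp90b1 matches lie at chr10:86705638-86705656 and chr10:86705533-86705551, 193 and 88 bases before the start, the nearer one on the strand opposite to the gene. The Calr match lies at chr8:84847075-84847093, 143 bases before the start and on the opposite strand, and the Canx match at chr11:50325800-50325818, 126 bases before the start. Related elements were sought in the same windows. ERSE-II (ATTGG and CCACG with 1 base between them) was in 0.0365% of all windows, the XBP1 site known as UPRE (TGACGTGG) in 0.676% and the CHOP-ATF4 element (TGATGNAA) in 3.97%, each in 0 of the 10 genes. A match or its absence describes the letters of the window only.

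The 12 RNA samples were hybridized on 6 two-colour arrays, each with 2 mice of the same group. Replicates 1 and 3 carried Cy3 and replicates 2 and 4 Cy5. Each group had its own slide, and the effects of slide and genotype cannot be told apart. Values are scaled signals, in multiples of the median retained spot of the same channel. The Cy5 channels of the MRL/+ mice (replicates 2 and 4) stood apart. The median of the 153 dark control spots was 6.12 and 6.31 times local background in these mice and 1.13 to 2.65 times in the other 10, and the scanner called 35% and 21.17% of spots well above background in these mice and at least 56.63% in the others. Differences from MRL/+ are therefore also given with the Cy3 mice alone (2 per group), without the Cy5 MRL/+ mice, or both. These checks have a limit at low signals. In scaled signal the dark control spots of the Cy3 mice lay at 0.34 and 0.07 in MRL/+ and at 0.05 and 0.05 in MRL/lpr. In Fn14ko they lay at 0.24 and 0.05. For genes near these levels the Cy3 differences can reflect unlike dark levels. In the label check, Tnfrsf12a, which encodes Fn14, lay at 0.60 to 0.78 in the Fn14ko mice and 1.38 to 1.90 in the MRL/lpr mice, a log2 difference of 1.27 (limma adjusted p = 0.00287). Its probe still read 17.2 to 22.5 times local background in the Fn14ko mice, and whether it lies in the deleted part is not given in the sources used here. Fas gave no check of lpr, since its probe was not well above background in either Cy5 MRL/+ mouse and in 1 MRL/lpr mouse. In the Cy3 mice Fas read 0.16 and 0.17 in MRL/lpr and 0.46 and 0.19 in MRL/+, the 0.46 beside dark control spots at 0.34. The spread within a group is between mice, and in whole cortex fewer cells of a type and less RNA per cell cannot be told apart.

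Of 9 quantified genes, 1 rose in MRL/lpr against MRL/+ and 0 fell. The gene was Atf4. Over all 17302 genes of that comparison 14.4% passed the threshold (limma adjusted p under 0.05), with 6.03% higher and 8.37% lower, so 1 in 9 was near the background. Atf4 was also the single gene of the 9 without overlap between these groups, beside 23.9% of all genes, with 10.8% higher. In Fn14ko against MRL/+, 0 of 9 passed, with a background of 0.954%, and in MRL/lpr against Fn14ko 0 of 9 passed, with a background of 4.57%. At an unadjusted p under 0.05 limma gave 2 of 9 genes (Atf4 and Xbp1) in each comparison with MRL/+ and 1 of 9 (Pdia3) between the lpr groups. Of all genes 34.7%, 21.9% and 18.6% were under that limit in MRL/lpr against MRL/+, Fn14ko against MRL/+ and MRL/lpr against Fn14ko, so the 9 genes stood near or below the background. The methods' t-test with Benjamini-Hochberg adjustment passed 0 of 9 in each comparison, beside 4.17%, 0.0116% and 1.05% of all genes. The median log2 difference of the 9 genes was 0.41, 0.27 and 0.07 in the 3 comparisons in this order, beside -0.10, -0.10 and -0.07 for all genes. With the Cy3 mice alone (2 per group) the medians were -0.02, -0.06 and 0.03 and 0 of 9 passed in any comparison, where 7.84%, 0.959% and 2.71% of all genes passed. With all mice but the Cy5 MRL/+ pair the medians were 0.08, -0.07 and 0.07 and again 0 of 9 passed, beside 5.03%, 0.0347% and 3.11%.

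**Figure D1:**
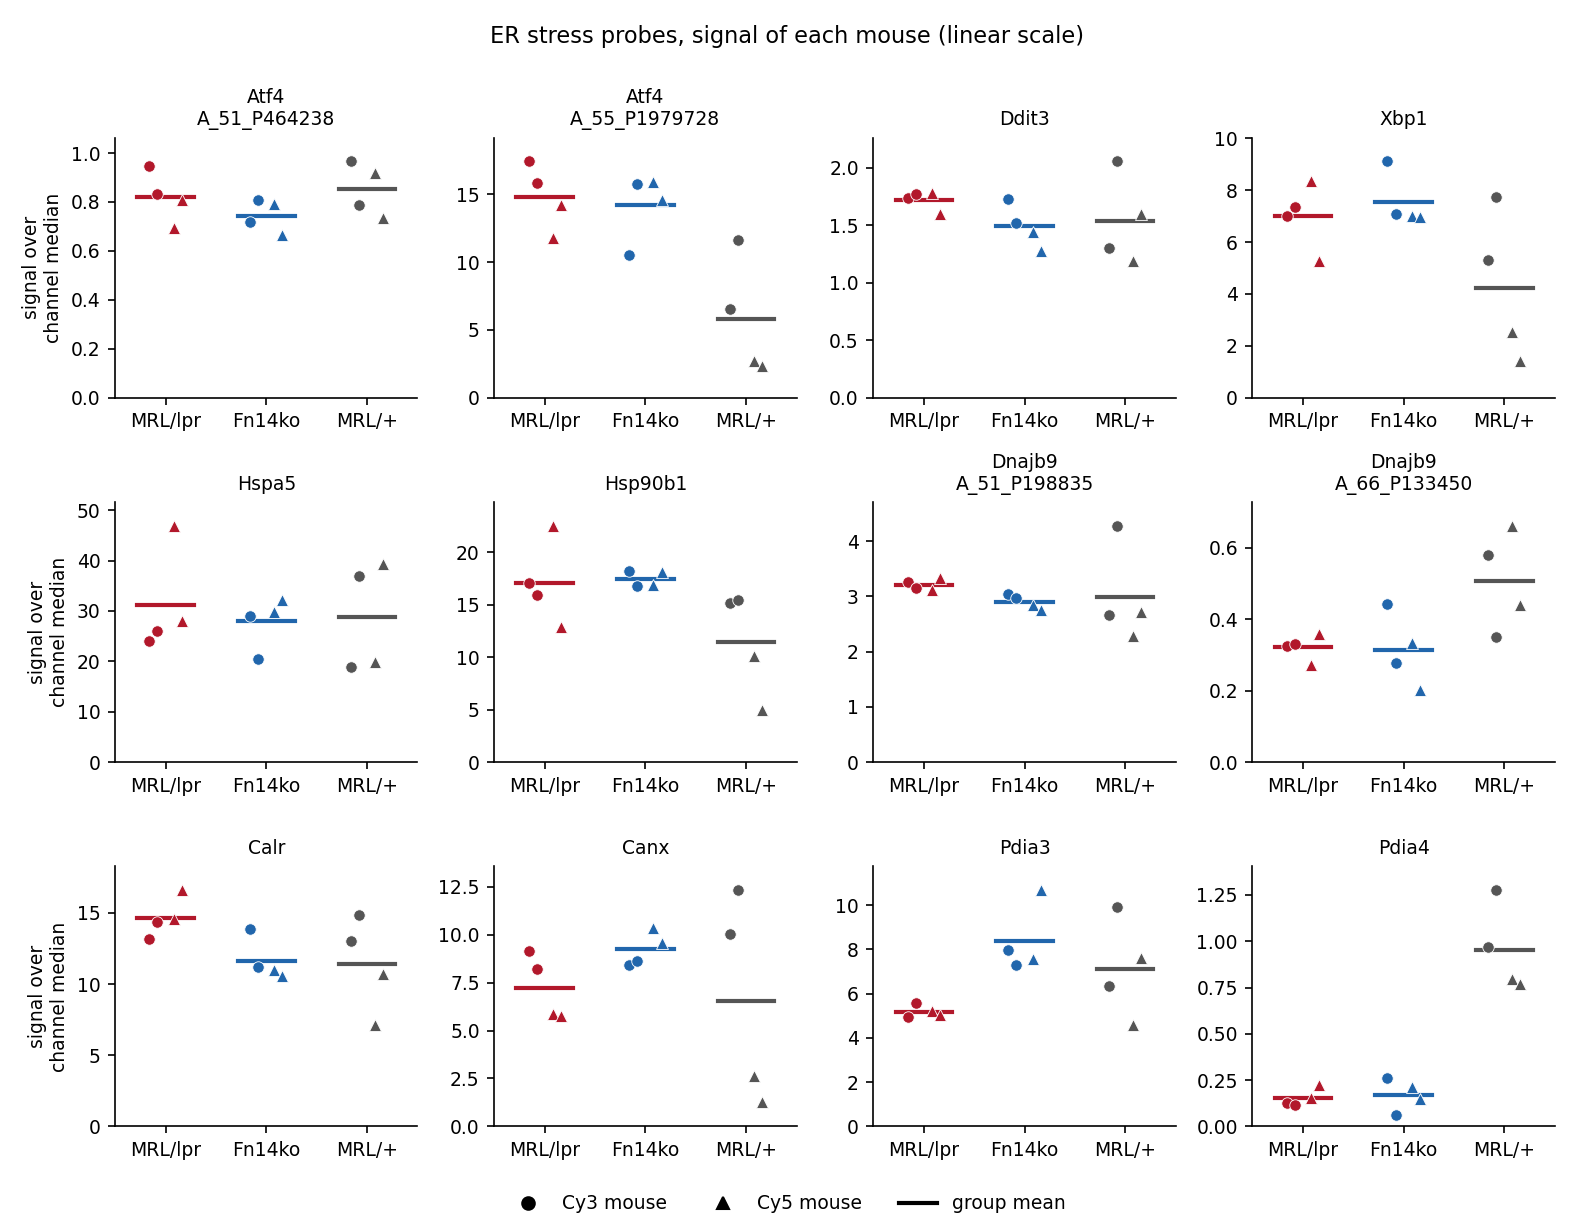
Scaled signal of each mouse (linear axis from 0, multiples of the channel median) for the 12 probes, 1 panel each. Circles are Cy3 mice, triangles are Cy5 mice and lines are means of 4 mice. Both MRL/+ triangles lie below both MRL/+ circles for Canx, Xbp1, Hsp90b1, Calr and Atf4 probe A_55_P1979728, and for Pdia4 all 4 MRL/+ mice lie above both lpr groups.

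**Figure D2:**
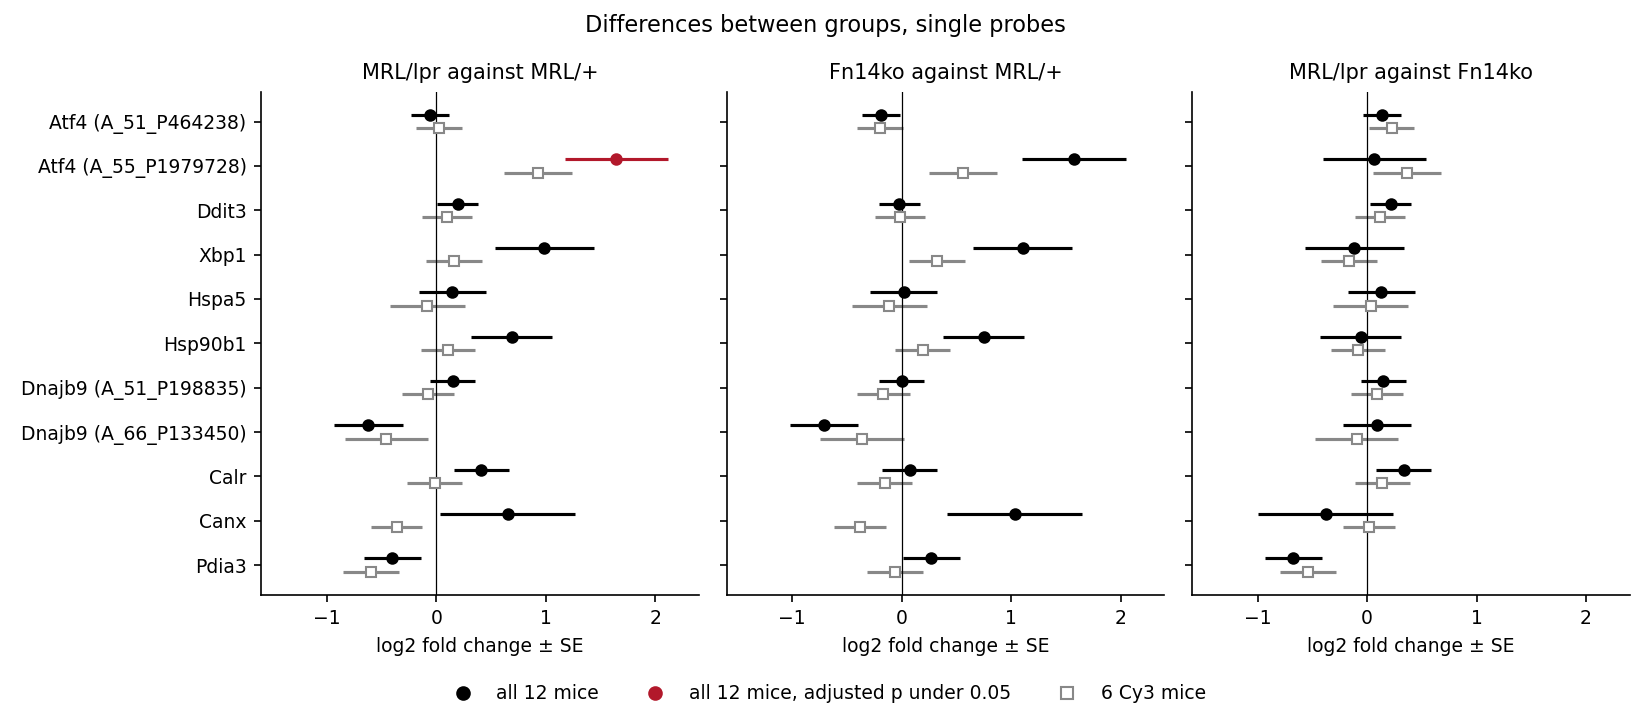
Log2 difference (point) and SE (line) from limma for the 11 retained probes in the 3 comparisons, with all 12 mice (circles, red where the adjusted p was under 0.05) and with the 6 Cy3 mice (squares). The differences of Xbp1, Hsp90b1 and Atf4 probe A_55_P1979728 from MRL/+ are smaller with the Cy3 mice alone, and those of Canx change sign.

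Atf4 encodes the transcription factor through which PERK acts on amino acid and redox genes. Its probe A_55_P1979728 (mm9 chr15:80087902-80087961, plus strand) read 17.43, 11.77, 15.85 and 14.24 in MRL/lpr replicates 1 to 4. It read 10.55, 15.87, 15.72 and 14.58 in the Fn14ko mice. In the MRL/+ mice it read 6.54, 2.73, 11.64 and 2.32. All 4 MRL/lpr mice lay above all 4 MRL/+ mice, although MRL/lpr replicate 2 and MRL/+ replicate 3 were nearly equal, and the lowest Fn14ko mouse lay below the highest MRL/+ mouse. The mean was 14.8 ± 2.42 (SD, n = 4) in MRL/lpr, 14.2 ± 2.49 in the Fn14ko mice and 5.81 ± 4.33 in MRL/+, a ratio of 2.55 for MRL/lpr over MRL/+.

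Fitted alone, this probe rose in MRL/lpr against MRL/+ by 1.65 on the log2 scale (SE 0.47, limma adjusted p = 0.0354, where 15% of 22419 probes passed), and the difference was 0.93 with the Cy3 mice alone and 0.78 without the Cy5 MRL/+ mice. The other Atf4 probe, A_51_P464238 (chr15:80086639-80086698), did not move with it. Its group means were 0.82, 0.74 and 0.85 for MRL/lpr, Fn14ko and MRL/+, the groups overlapped, and the log2 difference of MRL/lpr from MRL/+ was -0.05 (limma adjusted p = 0.835) and 0.03 with the Cy3 mice alone. This probe was well above background in 3 of 4 MRL/+ mice. The Cy5 MRL/+ mice read 0.92 and 0.73 at it, beside 0.66 and 0.82 for their dark control spots. Its difference with all mice thus rests in part on values near the dark level. The 2 probes of Atf4 disagreed with all mice and with the Cy3 mice alone. As a gene, the mean of both probes, Atf4 rose by 1.45 (SE 0.42, limma adjusted p = 0.0366) in MRL/lpr against MRL/+. The difference of Fn14ko from MRL/+ was 1.38 (limma adjusted p = 0.113), and MRL/lpr and Fn14ko differed by 0.07 (limma adjusted p = 0.953).

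The call for Atf4 ended in several settings, among them those without the Cy5 MRL/+ mice. In MRL/+ the Cy5 mice lay 1.79 below the Cy3 mice on the log2 scale at probe A_55_P1979728. With the Cy3 mice alone the gene's difference between MRL/lpr and MRL/+ was 0.86 (limma adjusted p = 0.0930), and without the Cy5 MRL/+ mice it was 0.71 (limma adjusted p = 0.283). Averaging the probes on the log2 scale gave 0.80 (limma adjusted p = 0.0639) and the scanner's processed signal 0.30 (limma adjusted p = 0.161), while no filter on dim spots gave 2.05 (limma adjusted p = 0.158). Leaving out single mice ended the call in 6 of 12 fits, with 1.08 (limma adjusted p = 0.1996) without MRL/+ replicate 4 and adjusted p of 0.0504 to 0.0647 without MRL/lpr replicate 1, 2 or 4 or Fn14ko replicate 2 or 3. Without MRL/+ replicate 2, the other Cy5 MRL/+ mouse, the call held at 1.31 (limma adjusted p = 0.0457). For Fn14ko against MRL/+ the threshold was passed with background subtraction (1.36, limma adjusted p = 0.0144), loess (1.18, limma adjusted p = 0.0258) and spots well above background (1.35, limma adjusted p = 0.0170), and without Fn14ko replicate 1 (1.66, limma adjusted p = 0.0388) or MRL/+ replicate 3 (1.77, limma adjusted p = 0.0467), but the difference was 0.50 with the Cy3 mice alone (limma adjusted p = 0.705). Vessel and meninges markers summed to 31.19 to 33.38 in MRL/lpr, 25.13 to 51.46 in the Fn14ko mice and 18.12 to 26.11 in MRL/+, with 3 of 8 higher in MRL/lpr than MRL/+ (6.03% of all genes), and 1 of 8 without the Cy5 MRL/+ mice (2.24% of all genes). The brightest in MRL/lpr was Vtn, at 11.7 to 13.6, beside 4.58 to 7.09 in MRL/+. Without overlap 3 of 8 were higher in MRL/lpr than MRL/+ (10.8% of all genes) and 1 of 8 was lower (13%). The lower marker was Dcn, at 1.51 to 2.35 in MRL/lpr and 2.42 to 6.35 in MRL/+. The part of these markers in the Atf4 result was not tested.

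**Figure D3:**
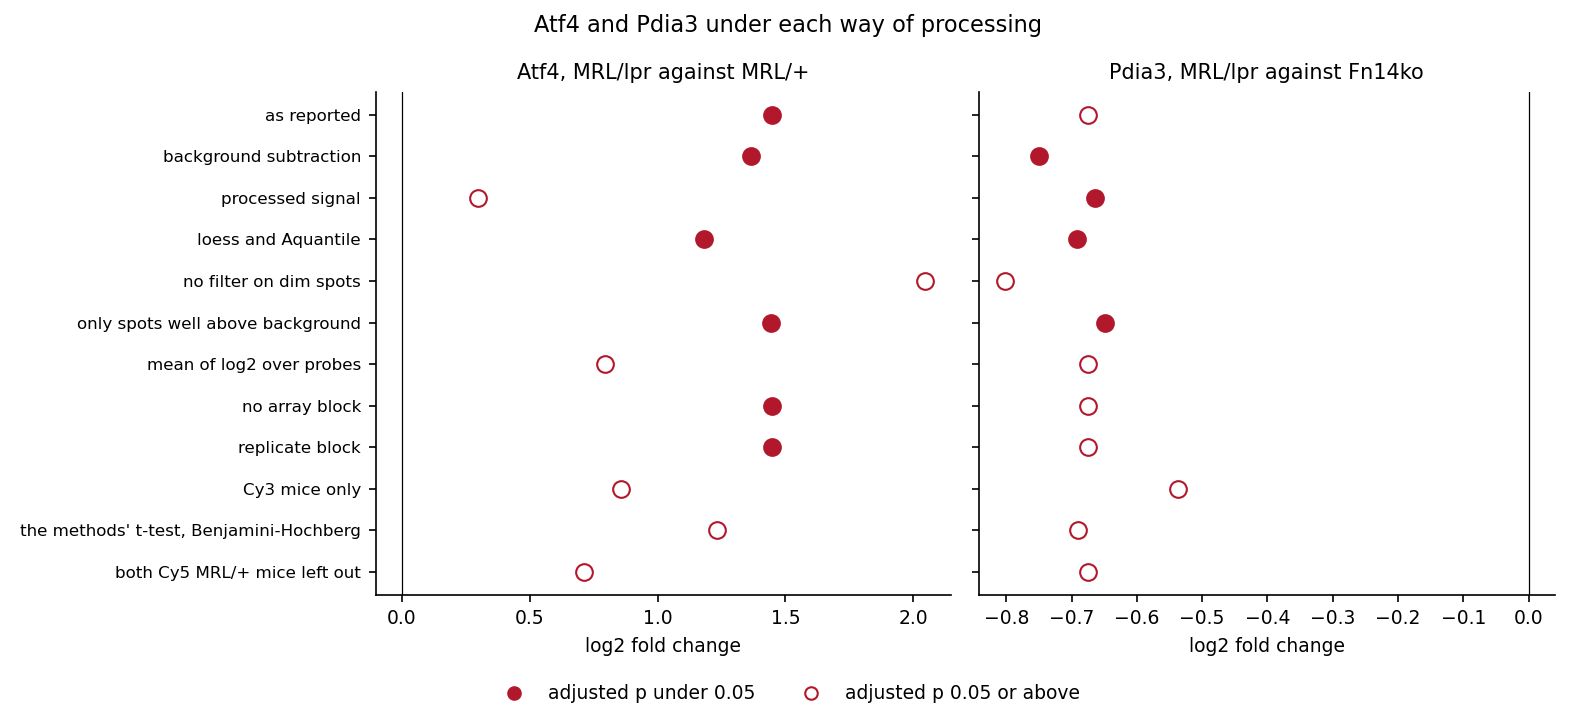
Log2 difference of Atf4 (MRL/lpr against MRL/+) and of Pdia3 (MRL/lpr against Fn14ko) under 12 processing settings, filled where the adjusted p was under 0.05. Atf4 ranges from 0.30 to 2.05 and Pdia3 from -0.80 to -0.54, and neither changes sign.

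Xbp1 encodes the factor that IRE1 activates by splicing. Its probe (chr11:5425816-5425875, plus strand) read 7.0, 8.37, 7.35 and 5.28 in the MRL/lpr mice and 9.12, 7.02, 7.07 and 6.97 in the Fn14ko mice. The MRL/+ mice read 5.31, 2.52, 7.73 and 1.42. The 2 Cy5 MRL/+ mice lay below every other mouse, and the lower of them was not well above background, while the Cy3 MRL/+ mice lay within the range of the lpr groups. The log2 difference from MRL/+ was 0.99 (SE 0.45, limma adjusted p = 0.138) for MRL/lpr and 1.11 (limma adjusted p = 0.190) for Fn14ko, and it was 0.16 and 0.33 with the Cy3 mice alone. Leaving out MRL/+ replicate 3, the highest of its group, brought both past the threshold, at 1.42 (limma adjusted p = 0.0228) and 1.54 (limma adjusted p = 0.0467).

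Ddit3 encodes CHOP, the factor of prolonged stress. Its probe (chr10:126732518-126732821, plus strand, a span that takes in more than the probe's length) read 1.74, 1.78, 1.78 and 1.6 in the MRL/lpr mice and 1.73, 1.44, 1.52 and 1.27 in Fn14ko. The MRL/+ mice read 1.3, 1.19, 2.06 and 1.6. The MRL/+ mice held both the highest and the lowest value, and the groups overlapped in every comparison. The log2 difference was 0.20 (SE 0.18, limma adjusted p = 0.437) for MRL/lpr against MRL/+, -0.02 (limma adjusted p = 0.946) for Fn14ko against MRL/+ and 0.22 (limma adjusted p = 0.591) between the lpr groups. Against MRL/+ it was 0.10 for MRL/lpr and -0.02 for Fn14ko with the Cy3 mice alone, and 0.15 and -0.07 without the Cy5 MRL/+ mice, 1 of which was not well above background.

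Hspa5 encodes BiP, the chaperone that binds the sensors and is the usual readout of the response. Its probe (chr2:34631913-34631972, plus strand) read 24.13, 46.93, 25.93 and 27.99 in the MRL/lpr mice. It read 29.09, 29.75, 20.53 and 32.26 in the Fn14ko mice and 18.92, 19.87, 37.01 and 39.28 in the MRL/+ mice. The groups overlapped widely, and the MRL/+ mice formed a low pair, replicates 1 and 2 of 1 array, and a high pair, replicates 3 and 4 of the other array, so that this split was by array and not by dye. The log2 differences were 0.15 (SE 0.30, limma adjusted p = 0.746), 0.02 (limma adjusted p = 0.974) and 0.13 (limma adjusted p = 0.876) in the order MRL/lpr against MRL/+, Fn14ko against MRL/+ and MRL/lpr against Fn14ko. They were -0.08, -0.11 and 0.03 with the Cy3 mice alone. The genes whose centred log2 signal lay nearest to that of Hspa5 over the 12 mice were Crtc1, H2ac11 and Arhgdib, with root mean square differences of 0.18, 0.19 and 0.20 beside an SD of 0.41 for Hspa5 itself.

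Hsp90b1 encodes GRP94, the HSP90 of the ER. Its probe (chr10:86153770-86153829, minus strand) read 17.05, 22.53, 15.93 and 12.91 in the MRL/lpr mice and 18.18, 16.83, 16.78 and 18.10 in Fn14ko. The MRL/+ mice read 15.17, 10.08, 15.41 and 4.96. All 4 Fn14ko mice lay above all 4 MRL/+ mice. This was the single gene of the 9 without overlap in that comparison, where 13.5% of all genes were without overlap, with 7.42% higher in Fn14ko. The log2 difference was 0.75 (SE 0.37, limma adjusted p = 0.247, exact permutation p = 0.0286, the smallest that 4 against 4 mice can give), and 0.19 with the Cy3 mice alone. Mice that share an array are not exchangeable singly, so the permutation p only describes the overlap. For MRL/lpr against MRL/+ the log2 difference was 0.69 (limma adjusted p = 0.191), and 0.11 with the Cy3 mice.

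Dnajb9 encodes ERdj4, a co-chaperone of BiP. Probe A_51_P198835 (chr12:45307313-45307372, minus strand) read 3.25, 3.12, 3.16 and 3.33 in the MRL/lpr mice and 3.04, 2.85, 2.98 and 2.75 in Fn14ko. It read 2.67, 2.28, 4.28 and 2.72 in MRL/+. Every MRL/lpr mouse lay above every Fn14ko mouse, as in 8.43% of all single probes, and the log2 difference was 0.15 (limma adjusted p = 0.797). From MRL/+ it differed by 0.15 in MRL/lpr, and by -0.08 with the Cy3 mice alone. Probe A_66_P133450 (chr12:45308272-45308331) read 0.27 to 0.36 in MRL/lpr, 0.20 to 0.44 in the Fn14ko mice and 0.35 to 0.66 in MRL/+, with neither Cy5 MRL/+ mouse well above background. Its log2 difference was -0.62 (limma adjusted p = 0.166) for MRL/lpr against MRL/+ and -0.71 (limma adjusted p = 0.202) for Fn14ko against MRL/+. These were -0.46 and -0.36 with the Cy3 mice alone, of which MRL/+ replicate 1 read 0.58, beside 0.34 for its dark control spots. The probes differed in sign for MRL/lpr against MRL/+, and as a gene Dnajb9 gave 0.04 (SE 0.17, limma adjusted p = 0.875), and -0.14 with the Cy3 mice alone.

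Calr and Canx encode calreticulin and calnexin, the lectin chaperones that hold glycoproteins during folding. The Calr probe (chr8:87366192-87366251, minus strand) read 13.16, 14.60, 14.34 and 16.61 in the MRL/lpr mice and 13.88, 10.96, 11.23 and 10.54 in Fn14ko. It read 13.00, 7.12, 14.84 and 10.71 in MRL/+. The MRL/lpr mice lay above 3 of the 4 Fn14ko mice, and the log2 difference between those groups was 0.34 (SE 0.25, limma adjusted p = 0.526). For MRL/lpr against MRL/+ it was 0.41 (limma adjusted p = 0.241), and -0.02 with the Cy3 mice alone.

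The Canx probe (chr11:50108047-50108106, minus strand) read 9.12, 5.87, 8.18 and 5.74 in the MRL/lpr mice and 8.44, 10.32, 8.62 and 9.58 in Fn14ko. In MRL/+ it read 10.01 and 12.32 in the Cy3 mice and 2.62 and 1.27 in the Cy5 mice. The MRL/+ group thus held both the highest and the lowest values, and the lowest, replicate 4, was not well above background. The log2 difference from MRL/+ was 0.65 (SE 0.61, limma adjusted p = 0.448) for MRL/lpr and 1.03 (limma adjusted p = 0.303) for Fn14ko. Both were below 0 with the Cy3 mice alone, at -0.36 and -0.38.

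The gap between the dyes in MRL/+ was shared by several of these genes. Both Cy5 MRL/+ mice lay below both Cy3 MRL/+ mice in 5 of the 11 retained probes, beside 20.8% of all retained probes, and the same order of the dyes held in 3 of 11 in MRL/lpr (15.2% of all) and 4 of 11 in Fn14ko (11.6% of all). Among the 7 probes of these genes whose mean scaled signal over the 12 mice was above 4, it held in 5 in MRL/+, beside 35.5% of the 4691 such probes. The 5 were Canx (Cy5 below Cy3 by 2.61 on the log2 scale), the Atf4 probe A_55_P1979728 (1.79), Xbp1 (1.76), Hsp90b1 (1.11) and Calr (0.67). The median coefficient of variation of the 9 genes within MRL/+ was 37.8%, beside 25.9% for all genes. In MRL/lpr it was 16.1% beside 15.5%, and in Fn14ko 13.0% beside 17.9%.

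Pdia3 encodes ERp57, the disulfide isomerase that works with calreticulin and calnexin. It is the gene of the 9 that separated the lpr groups, and its probe (chr2:121263343-121263402, plus strand) is shown for that reason.
Pdia3 probe: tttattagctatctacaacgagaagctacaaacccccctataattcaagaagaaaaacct

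The probe read 4.94, 5.20, 5.57 and 5.05 in MRL/lpr replicates 1 to 4. It read 7.96, 7.59, 7.28 and 10.68 in the Fn14ko mice and 6.35, 4.60, 9.93 and 7.62 in the MRL/+ mice. All 4 Fn14ko mice lay above all 4 MRL/lpr mice in both dyes, and the MRL/+ mice overlapped both groups. The mean was 5.19 ± 0.27 (SD, n = 4) in MRL/lpr and 8.38 ± 1.56 in Fn14ko, a ratio of 1.61 for Fn14ko over MRL/lpr. Pdia3 was the single gene of the 9 without overlap between the lpr groups, where 20.3% of all genes were without overlap, with 11.3% lower in MRL/lpr.

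The log2 difference of MRL/lpr from Fn14ko was -0.68 (SE 0.26), which did not pass over all genes (limma adjusted p = 0.173, exact permutation p = 0.0286, the smallest possible and only a description of overlap). It passed with plain background subtraction (-0.75, limma adjusted p = 0.0121), the scanner's processed signal (-0.66, limma adjusted p = 0.0229), loess (-0.69, limma adjusted p = 0.0202) and the spots well above background (-0.65, limma adjusted p = 0.0203). In these settings 16.5%, 10.9%, 13.2% and 16.1% of all genes passed. It was -0.54 with the Cy3 mice alone (limma adjusted p = 0.381) and passed in 0 of 12 fits that left out a mouse. Against MRL/+ the difference was -0.40 (limma adjusted p = 0.262) for MRL/lpr and 0.27 (limma adjusted p = 0.491) for Fn14ko, and the former passed with background subtraction (-0.55), loess (-0.70) and spots well above background (-0.61) at limma adjusted p = 0.0300, 0.0105 and 0.0180. The differences from MRL/+ were -0.60 and -0.06 with the Cy3 mice alone, and without the Cy5 MRL/+ mice -0.67 and 0.0075. Myelin markers moved in the same direction between the lpr groups, with 2 of 8 lower in MRL/lpr (1.99% of all genes) and summed signals of 50.85 to 76.47 in MRL/lpr, 82.43 to 104.8 in the Fn14ko mice and 74.05 to 94.77 in MRL/+. The 7 quantified choroid plexus markers summed to 6.77 to 99.19 in MRL/lpr and 13.61 to 181.4 in Fn14ko, with 1 of 7 lower in MRL/lpr (1.99% of all genes). Their part in the Pdia3 result was not tested.

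Pdia4 encodes ERp72, another disulfide isomerase and a target of the response. Its probe (chr6:47746516-47746575, minus strand) was removed by the filter because 2 mice, MRL/lpr replicate 2 and Fn14ko replicate 3, lay under 2 times the local background, at 1.67 and 1.76 times. The sequence is shown because the probe had the widest gap between groups among the 12.
Pdia4 probe: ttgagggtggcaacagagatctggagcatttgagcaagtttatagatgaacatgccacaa

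The scaled signal was 0.97, 0.79, 1.28 and 0.77 in the MRL/+ mice. It was 0.13, 0.15, 0.12 and 0.23 in the MRL/lpr mice and 0.26, 0.21, 0.06 and 0.15 in Fn14ko. All 4 MRL/+ mice lay above all 8 lpr mice. In units of local background the Cy3 MRL/+ mice read 34.4 and 31.9 times, while the Cy5 MRL/+ mice read 7.17 and 6.11 times, about the level of the dark control spots of those channels. The probe was well above background in 2 of 4 MRL/+ mice, 3 of 4 MRL/lpr mice and 2 of 4 Fn14ko mice. Among the MRL/+ mice the probe was thus measured above background in the 2 Cy3 mice, whose mean was 9.22 times that of the Cy3 MRL/lpr mice. The Cy3 Fn14ko mice lay near their dark control spots, at 0.26 beside 0.24 in replicate 1 and 0.06 beside 0.05 in replicate 3, and no fold is given against them. In raw scanner intensity the Cy3 MRL/+ mice read 1188 and 1148, and the 8 lpr mice 61.9 to 135.1.

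For all 12 mice the exact permutation p was 0.0286 for each lpr group against MRL/+, the smallest possible. This p is no test of the probe. The Cy5 MRL/+ mice read 0.79 and 0.77, beside 0.66 and 0.82 for their dark control spots. Those dark levels themselves lay above all lpr mice. For the Cy3 mice the exact permutation p was 0.333, the smallest that 2 against 2 can give. Without any filter on dim spots the probe gave -2.04 (limma adjusted p = 0.147) and -1.90 (limma adjusted p = 0.563) against MRL/+ in the same order.

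**Figure D4:**
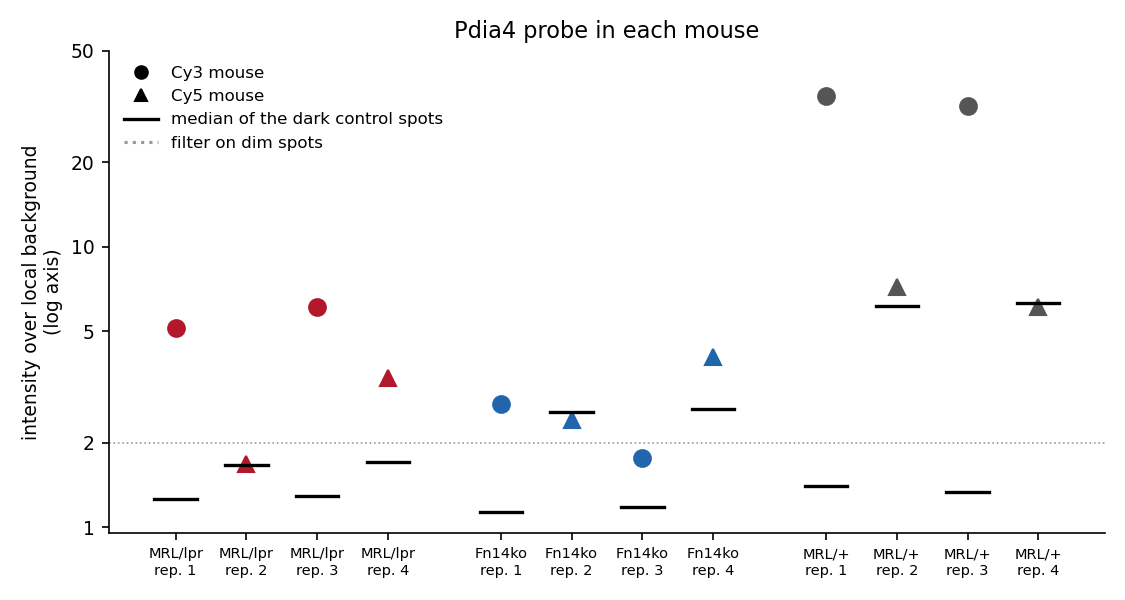
Intensity of the Pdia4 probe in multiples of local background (log axis) for each mouse (circles Cy3, triangles Cy5), beside the median of the dark control spots of the same channel (black lines) and the limit of 2 of the filter on dim spots (dotted line). The Cy3 MRL/+ mice lie at 34.4 and 31.9 times, far above their dark spots, whereas the Cy5 MRL/+ mice lie at the level of theirs.

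The rest of the pathway was read from 4 lists. The sensors and the proteases that process ATF6, together with Eif2s1 and Ppp1r15b, made up the first, with 8 genes, all quantified. In MRL/lpr against MRL/+, 0 rose and 2 fell, beside 8.37% of all genes lower, and the list's median log2 difference was -0.39 beside -0.10 for all genes. The median was -0.37 both with the Cy3 mice alone, where 1 of 8 fell (4.29% of all genes), and without the Cy5 MRL/+ mice, where 0 of 8 passed. In Cy3 MRL/+ replicate 1, Ern1, Mbtps2 and Ppp1r15b read 0.39, 0.44 and 0.39, near the 0.34 of its dark control spots. Atf6b, a relative of the sensor ATF6, read 0.84, 1.04, 1.79 and 1.85 in MRL/lpr and 2.94, 2.86, 2.71 and 3.09 in MRL/+. The groups did not overlap, beside 13% of all genes with MRL/lpr lower and no overlap, and both MRL/+ dyes read alike. The MRL/lpr values split by array, with replicates 1 and 2 of 1 array the lower pair. Replicates 3 and 4, of the other array, lay within the Fn14ko range of 1.69 to 2.37. Atf6b fell by 1.15 on the log2 scale (SE 0.26, limma adjusted p = 0.0125). The difference was -1.20 with the Cy3 mice alone (limma adjusted p = 0.0258), -1.08 without the Cy5 MRL/+ mice (limma adjusted p = 0.0824) and -1.10 without MRL/+ replicate 4 (limma adjusted p = 0.0615). It was -0.55 without the filter on dim spots (limma adjusted p = 0.437), and the methods' t-test did not call it either (Benjamini-Hochberg adjusted p = 0.0835 over all genes).

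The Fn14ko mice lay between, with Atf6b at 2.37, 1.88, 2.07 and 1.69 and a log2 difference of -0.54 from MRL/+ (limma adjusted p = 0.236), or -0.35 with the Cy3 mice alone. MRL/lpr differed from Fn14ko by -0.61 (limma adjusted p = 0.226). Mbtps2, the site-2 protease that cuts ATF6, was the other gene, at 0.18 to 0.27 in MRL/lpr and 0.23 to 1.11 in MRL/+. It fell by 1.40 on the log2 scale (SE 0.43, limma adjusted p = 0.0481) although the groups overlapped. Its level was low, with 3 of 4 MRL/lpr mice and neither Cy5 MRL/+ mouse well above background, and the Cy5 MRL/+ mice held the 2 highest values, 0.82 and 1.11, beside 0.66 and 0.82 for their dark control spots. Both the size and the direction of the difference are therefore uncertain. In the Cy3 mice the probe read 9.46 and 9.82 times local background in MRL/lpr and 10.4 and 7.49 times in MRL/+. MRL/+ replicate 1 read 0.44 in scaled signal, beside 0.34 for its dark control spots. The other Mbtps2 probes were removed by the filter and were well above background in 0 mice of each group. The difference was -0.81 with the Cy3 mice alone (limma adjusted p = 0.493) and -0.75 without the Cy5 MRL/+ mice (limma adjusted p = 0.355), and 9 of 12 fits that left out a mouse ended the call. Those were the fits without any 1 of the MRL/lpr mice, Fn14ko replicate 2 or 3 or MRL/+ replicate 1, 2 or 4, at limma adjusted p = 0.0530 to 0.217, with -1.01 without MRL/+ replicate 4. The processed signal (limma adjusted p = 0.0697) and no filter on dim spots (limma adjusted p = 0.158) ended it too. In Fn14ko against MRL/+, 0 of the 8 genes of this list passed, with 1 at an unadjusted p under 0.05, beside 21.9% of all genes. It was Mbtps1, the site-1 protease (0.91, limma adjusted p = 0.101, and 0.52 with the Cy3 mice alone). In MRL/lpr against Fn14ko, 0 of 8 passed, and Atf6b alone had an unadjusted p under 0.05, beside 18.6% of all genes.

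The second list held 13 targets of ATF4 and CHOP, all quantified. In MRL/lpr against MRL/+, 0 passed and 3 of 13 had an unadjusted p under 0.05 (Asns, Eif4ebp1 and Nupr1), beside 34.7% of all genes. Asns, asparagine synthetase and a classic target of ATF4, read 12.75, 12.73, 13.60 and 13.82 in MRL/lpr and 8.24, 4.95, 11.59 and 6.94 in MRL/+, without overlap, as were 10.8% of all genes with MRL/lpr higher. Its log2 difference was 0.80 (SE 0.30, limma adjusted p = 0.0869) and 0.43 with the Cy3 mice alone (limma adjusted p = 0.410). In Fn14ko against MRL/+, 0 passed and 5 of 13 had an unadjusted p under 0.05, beside 21.9% of all genes. The median of the list there was 0.43, with 11 of 13 above 0, beside 43% of all genes above 0. The median was 0.16 with the Cy3 mice alone, with 7 of 13 above 0 (44.5% of all genes), and without the Cy5 MRL/+ mice 0.32, with 9 of 13 above 0 (42.8% of all genes). Psat1, of serine synthesis, had the smallest p, with 0.83 (limma adjusted p = 0.128) and 0.59 with the Cy3 mice alone.

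Between the lpr groups 1 of the 13 rose, beside 2.58% of all genes higher, and 0 fell. The gene was Sesn2, a stress-induced inhibitor of growth signalling. It read 2.51, 2.88, 2.34 and 3.61 in the MRL/lpr mice and 1.5, 1.75, 1.78 and 2.13 in Fn14ko. The groups did not overlap, beside 8.91% of all genes with MRL/lpr higher and no overlap, and the MRL/+ mice lay at 1.95 to 2.67, across both. Sesn2 was higher in MRL/lpr by 0.65 on the log2 scale (SE 0.16, limma adjusted p = 0.0374). It was 0.57 higher with the Cy3 mice alone (limma adjusted p = 0.172), and the call also ended without the filter on dim spots (0.53, limma adjusted p = 0.670) and without the Cy5 MRL/+ mice, which left the difference as it was (limma adjusted p = 0.0971). The call ended in 6 of 12 fits that left out a mouse, at 0.57 to 0.65 (limma adjusted p = 0.0664 to 0.137) without MRL/lpr replicate 1 or 4, Fn14ko replicate 1 or 2 or MRL/+ replicate 3 or 4. The median of the list in this comparison was -0.30, and 3 of 13 were above 0, beside 42.8% of all genes. Sesn2 thus stood against the direction of most of its list. With the Cy3 mice alone the genes that passed were others, Nupr1 (1.34, limma adjusted p = 0.0152) and Cebpb (-0.80, limma adjusted p = 0.0447) for MRL/lpr against MRL/+ and Psat1 (-0.93, limma adjusted p = 0.0290) for MRL/lpr against Fn14ko.

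The third list held 15 other ER chaperones and folding enzymes. In MRL/lpr against MRL/+, 1 rose and 1 fell, so 2 of 15 passed beside 14.4% of all genes. Dnajc10, which encodes the disulfide reductase ERdj5, read 2.59, 3.07, 2.71 and 2.83 in MRL/lpr and 1.61, 1.81, 1.71 and 1.55 in MRL/+. The groups were far apart beside their spread, 3 of 4 MRL/+ mice were well above background, and the Fn14ko mice lay between at 1.67 to 2.63. Dnajc10 rose by 0.75 on the log2 scale (SE 0.17, limma adjusted p = 0.0134), and the difference was 0.68 with the Cy3 mice alone (limma adjusted p = 0.0451) and 0.61 without the Cy5 MRL/+ mice (limma adjusted p = 0.104). The call ended with the processed signal (0.68, limma adjusted p = 0.0865), without the filter on dim spots (1.13, limma adjusted p = 0.158) and in the Cy3 mice with spots kept where any group was above background (0.53, limma adjusted p = 0.188). Among the 12 fits that left out a mouse, the one without MRL/+ replicate 4 ended the call (0.65, limma adjusted p = 0.0837).

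Hyou1, which encodes the ER chaperone GRP170, read 0.10, 0.19, 0.09 and 0.20 in the MRL/lpr mice and 0.26, 0.26, 0.08 and 0.14 in Fn14ko. It read 0.57, 0.75, 0.37 and 0.91 in MRL/+, above all lpr mice. Hyou1 fell by 2.14 on the log2 scale in MRL/lpr against MRL/+ (SE 0.44, limma adjusted p = 0.00861). Its level was low, with 2 of 4 MRL/lpr, 3 of 4 Fn14ko and 2 of 4 MRL/+ mice well above background, and the Cy5 MRL/+ mice near the 0.66 and 0.82 of their dark control spots. The difference was -2.21 with the Cy3 mice alone (limma adjusted p = 0.194), -2.07 without the Cy5 MRL/+ mice (limma adjusted p = 0.0727) -2.01 without MRL/+ replicate 4 (limma adjusted p = 0.0587) and -1.54 without the filter on dim spots (limma adjusted p = 0.0963). The methods' t-test with Benjamini-Hochberg adjustment over all genes did not call Hyou1, Mbtps2 or Sesn2 (adjusted p = 0.132, 0.263 and 0.172). In Fn14ko against MRL/+, 0 of 15 passed and 6 of 15 had an unadjusted p under 0.05, beside 21.9% of all genes, led by Hyou1 (-1.88, limma adjusted p = 0.0630). Hyou1 passed there with background subtraction (-2.91), the processed signal (-4.26) and loess (-1.43), at limma adjusted p = 0.000163, 0.00203 and 0.000606. With no array block and with the replicate block it passed at limma adjusted p = 0.01585 and 0.0169. In these settings 16.4%, 5.85%, 8.64%, 10.9% and 6.99% of all genes passed. Hyou1 also passed without Fn14ko replicate 1 (-2.22, limma adjusted p = 0.0125) or MRL/+ replicate 3 (-2.04, limma adjusted p = 0.0467). It was -1.68 with the Cy3 mice alone (limma adjusted p = 0.675) and -1.82 without the Cy5 MRL/+ mice (limma adjusted p = 0.428). Between the lpr groups 0 of 15 passed and 2 had an unadjusted p under 0.05, beside 18.6% of all genes. They were Dnajc10 (0.44, limma adjusted p = 0.176) and Dnajc3. Dnajc3, the BiP cofactor p58IPK, read 13.35 and 50.11 in MRL/lpr replicates 1 and 2, which shared an array, and 0.49 to 1.27 in the other 10 mice. Its high values were thus those of 1 array. With the Cy3 mice alone Sdf2l1, a cofactor of BiP, was lower than in MRL/+ in both lpr groups, by -1.29 in MRL/lpr (limma adjusted p = 0.0392) and -1.73 in Fn14ko (limma adjusted p = 0.0372).

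The fourth list held 15 genes of ER-associated degradation and translocation, and 0 passed in any comparison. At an unadjusted p under 0.05 there were 3 in MRL/lpr against MRL/+ (Edem1, Edem2 and Herpud1), 2 in Fn14ko against MRL/+ (Edem1 and Sec62) and 0 between the lpr groups, below the 34.7%, 21.9% and 18.6% of all genes. Edem1, which leads misfolded glycoproteins to degradation, read 0.92 to 1.25 in MRL/lpr, 1.01 to 1.36 in the Fn14ko mice and 0.73 to 0.89 in MRL/+. Every lpr mouse lay above every MRL/+ mouse, beside 10.8% and 7.42% of all genes with MRL/lpr or Fn14ko higher and no overlap, with log2 differences of 0.40 (limma adjusted p = 0.0972) and 0.54 (limma adjusted p = 0.104), and of 0.48 and 0.49 with the Cy3 mice alone. The Cy5 MRL/+ mice read 0.83 and 0.73, beside 0.66 and 0.82 for their dark control spots, and replicate 4 was not well above background. Sec62, of the translocation channel, differed by 0.85 between Fn14ko and MRL/+ (limma adjusted p = 0.102) and by 0.41 with the Cy3 mice alone. Derl2 had the smallest p between the lpr groups, with -0.33 (limma adjusted p = 0.340). With all mice but the Cy5 MRL/+ pair, 0 genes of the 4 lists passed in any comparison.

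**Figure D5:**
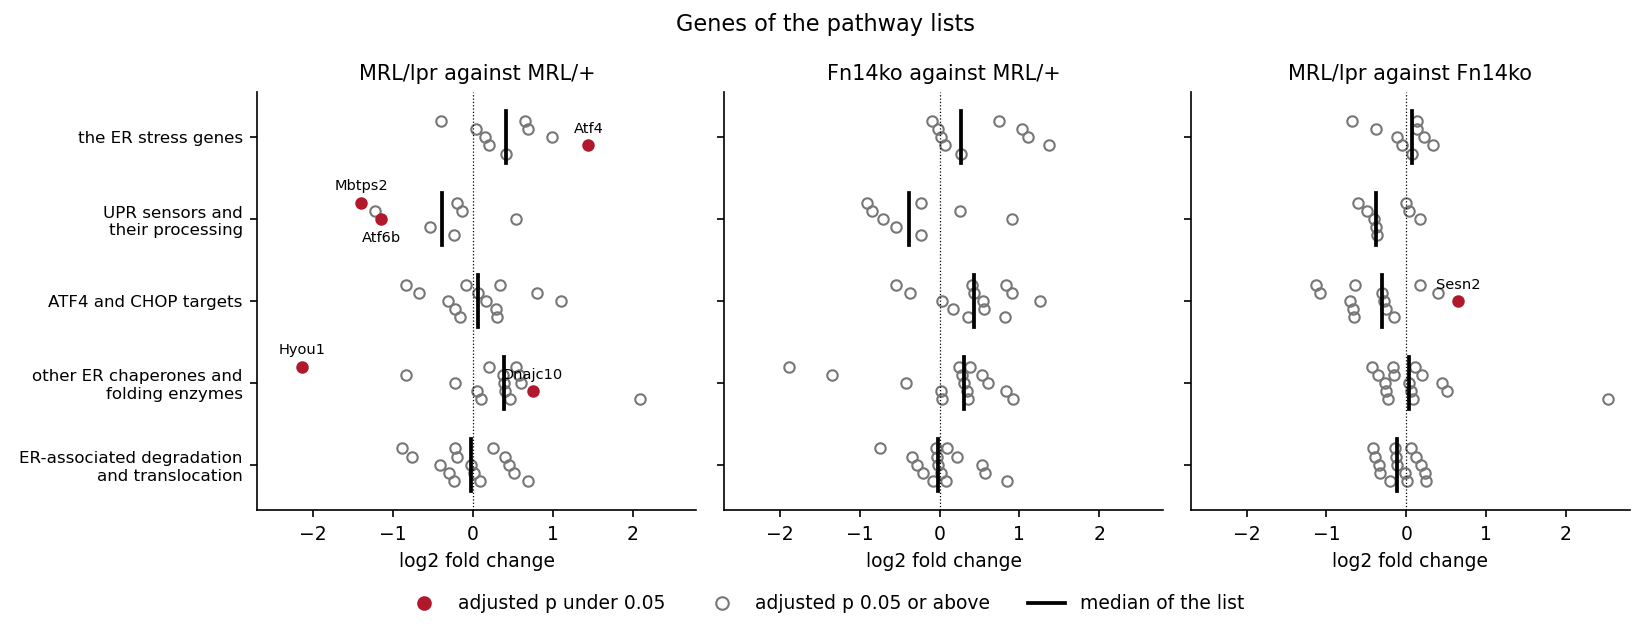
Log2 differences of the 9 ER stress genes and the genes of the 4 pathway lists in the 3 comparisons. Each circle is a gene, filled and named where the adjusted p was under 0.05, and the black lines are list medians. Of the pathway lists, Atf6b, Mbtps2, Hyou1 and Dnajc10 passed in MRL/lpr against MRL/+ and Sesn2 in MRL/lpr against Fn14ko.

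Marker genes of cell types were read in the same fit, to check the tissue. All 8 markers of cortical excitatory neurons were quantified, with 4 higher and 2 lower in MRL/lpr than in MRL/+, beside 6.03% and 8.37% of all genes. Between the lpr groups 3 of 8 passed, beside 4.57% of all genes. Without overlap 6 of 8 were higher in MRL/lpr than Fn14ko and 1 was lower, beside 8.91% and 11.3% of all genes. The summed signals of the 8 were 29.44 to 33.24 in MRL/lpr, 27.46 to 35.74 in the Fn14ko mice and 31.66 to 47.53 in MRL/+. Their sum follows the brightest marker, Slc17a7, at 8.7 to 14.6, 12.7 to 20.3 and 20.5 to 30.5 in these groups. Microglial markers (8 of 8 quantified, 1 higher in MRL/lpr than MRL/+) summed to 33.43 to 48.43, 31.29 to 42.55 and 34.15 to 42.49 in the same order of groups. This sum follows its brightest marker, Itgam, at 15.08 to 21.95 in MRL/lpr and 18.37 to 27.99 in MRL/+. Of the 8, 2 (Aif1 and Trem2) were higher in MRL/lpr than MRL/+ without overlap, beside 10.8% of all genes, and 0 lower. Astrocyte markers (8 of 8 quantified, 0 past the threshold in any comparison) summed to 121.2 to 225.9, 119 to 134.3 and 105.6 to 152.8, a sum that follows Aldoc (78.59 to 177.1 in MRL/lpr). Plasma cells secrete heavily and carry a high level of this response. Of the 8 markers of plasma and B cells 2 were quantified, at summed signals of 0.45 to 0.63 in MRL/lpr, 0.79 to 5.04 in the Fn14ko mice and 0.39 to 1.45 in MRL/+. Of these, 1 was lower in MRL/lpr than in Fn14ko, beside 1.99% of all genes.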

How the data were processed

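Cortical RNA of 12 mice was hybridized by the authors in pairs on 6 two-colour Agilent mouse arrays. The deposited values are the scanner's spot intensities for each dye with their local background, not normalized, and a processed signal that the scanner software had background-subtracted and dye-normalized. The former were used, and the latter as an alternative. Feature Extraction version 12.1.0.3 wrote them per the file headers, and the methods name another version. Probe coordinates are those of the files (mm9), with no annotation of that build used here. Of 43020 non-control spots, 1952 marked non-uniform or outlying and 17781 under 2 times local background in any mouse were left out, which kept 24255.

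Intensities were background-corrected with normexp (offset 50) and divided by the channel median, spots of a gene were averaged on the linear scale, and log2 values of 17302 genes were fitted for all mice in limma 3.58.1 (R 4.3.3). Dye was a fixed term, array a random block (correlation 0.316), with a mean-variance trend and Benjamini-Hochberg adjustment over all genes (threshold 0.05). Single probes (22419) were fitted likewise. Exact permutation tests are 2-sided over 70 divisions of 8 mice. They ignore that mice were paired on arrays and are not exchangeable singly, so their p-values are given as a description of overlap. Of the deposited spots 0 were saturated in any channel. The fits were tested on simulated data.

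The genes and lists were chosen with earlier results of these data known. All 10 genes are named, with up to 3 passing genes of each pathway list by size of change per comparison, or else the gene of smallest p, and the 3 genes nearest to Hspa5. Other list genes are named because their counts were 5 or fewer, after their values were seen. The alternatives were plain background subtraction, the processed signal, loess with Aquantile, no filter on dim spots, spots well above background in all mice, the mean of log2 over probes, no array block, a replicate block, the Cy3 mice alone, the methods' t-test and leaving out each mouse. Leaving out both Cy5 MRL/+ mice, and the Cy3 mice with spots kept where any group was above background, were added after the data were seen. Number of arrays limits the precision.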

Additional observations from a re-analysis of the deposited data

Results flagged for a closer look

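The signal of Xbp1 in Fn14ko replicate 1 (9.12) lay apart from the other 3 Fn14ko mice, with a gap to the nearest of 0.953 of the group's range. The signal of Hspa5 in MRL/lpr replicate 2 (46.93) lay apart from the other 3 MRL/lpr mice, with a gap of 0.831 of the range. Both gaps were past Dixon's limit for 4 mice, and chance flags about 1 in 20 groups. These were 2 of the 36 groups of mice examined over the 12 probes. Both mice were above their groups, in Cy3 for Xbp1 and in Cy5 for Hspa5.

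Pdia4 was outside the main fit because of the filter on dim spots. The Cy3 MRL/lpr mice had a mean signal of 0.12 for its probe and the Cy3 Fn14ko mice 0.16, against 1.12 in the Cy3 MRL/+ mice. The fit without the filter gave log2 differences from MRL/+ of -2.04 for MRL/lpr and -1.90 for Fn14ko, neither past the threshold.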

How the results depend on the processing

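The counts of the 9 genes past the threshold moved with the processing. For MRL/lpr against MRL/+ the 1 became 2 with background subtraction, loess, spots well above background and no array block. Of all genes 29.7%, 27.4%, 29.8% and 30% passed in these settings. The 1 became 0 with the processed signal, no filter on dim spots, the mean of log2 over probes, the Cy3 mice alone, the methods' t-test after Benjamini-Hochberg adjustment and without both Cy5 MRL/+ mice. There 17.7%, 0.0755%, 14.6%, 7.84%, 4.17% and 5.03% of all genes passed. Leaving out 1 mouse gave 0 to 2. For Fn14ko against MRL/+ the 0 became 1 with background subtraction, loess, spots well above background, no array block, the replicate block, the methods' unadjusted t-test and the added Cy3 fit. In these settings 16.4%, 8.64%, 11.5%, 10.9%, 6.99%, 15.2% and 0.845% of all genes passed. Leaving out 1 mouse gave 0 to 2 in this comparison. For MRL/lpr against Fn14ko the 0 became 1 with background subtraction, the processed signal, loess and spots well above background and 2 with the methods' unadjusted t-test. In these settings 16.5%, 10.9%, 13.2%, 16.1% and 22.1% of all genes passed. Leaving out 1 mouse gave 0 in all fits of this comparison. The 1 gene of the added Cy3 fit in both comparisons with MRL/+ was Pdia4, and since that fit was chosen after its values were seen, its calls are no test. The counts of the 4 pathway lists moved too. Over all settings they ran in MRL/lpr against MRL/+ from 0 to 4 (sensors), 0 to 4 (ATF4 and CHOP targets), 0 to 6 (other chaperones) and 0 to 3 (degradation and translocation), in Fn14ko against MRL/+ from 0 to 3, 5, 6 and 2, and between the lpr groups from 0 to 2, 5, 2 and 3. The share of all genes that passed ran from 0.0755% to 32.3%, 0% to 16.4% and 0.11% to 22.1% in these comparisons.

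Of the differences that changed sign, none had passed the threshold, and the cause was not tested. All values are log2. With background subtraction Hspa5 became -0.014 in MRL/lpr against MRL/+ and -0.071 in Fn14ko against MRL/+, Calr -0.010 in Fn14ko against MRL/+ and Dnajb9 -0.017 in MRL/lpr against MRL/+. With the processed signal the differences of MRL/lpr from MRL/+ became -0.18 for Hspa5, -0.40 for Hsp90b1, -0.17 for Calr and -0.42 for Canx. Those of Fn14ko from MRL/+ became 0.18 for Ddit3, -0.27 for Hspa5, -0.20 for Hsp90b1, -0.22 for Calr, -0.18 for Canx and -0.0095 for Sec62. With loess, MRL/lpr against MRL/+ became -0.15 for Hspa5 and -0.13 for Dnajb9, Fn14ko against MRL/+ became -0.13 for Hspa5, -0.20 for Calr and -0.012 for Pdia3, and MRL/lpr against Fn14ko became -0.017 for Hspa5. With spots well above background, Hspa5 became -0.054 and -0.21 against MRL/+, Calr -0.15 in Fn14ko and Dnajb9 -0.052 in MRL/lpr.

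Without the filter on dim spots, which moved the median of all genes in MRL/lpr against Fn14ko from -0.07 to -0.349, Ddit3 became 0.70 and Dnajb9 0.63 in Fn14ko against MRL/+, Pdia3 0.19 in MRL/lpr against MRL/+ and Atf4 -0.056 in MRL/lpr against Fn14ko. Among single probes Atf4 A_51_P464238 became 0.54 in both comparisons with MRL/+, Atf4 A_55_P1979728 -0.059 between the lpr groups, and Dnajb9 A_66_P133450 0.015 in Fn14ko against MRL/+ and -0.037 between the lpr groups. The mean of log2 over probes turned Dnajb9 to -0.24 in MRL/lpr against MRL/+, and the methods' t-test turned Hspa5 to -0.044 in Fn14ko against MRL/+. With the Cy3 mice alone, under either filter, MRL/lpr against MRL/+ became -0.081 for Hspa5, -0.016 for Calr, -0.36 for Canx and -0.14 for Dnajb9. Fn14ko against MRL/+ became -0.11 for Hspa5, -0.15 for Calr, -0.38 for Canx and -0.061 for Pdia3, and Canx became 0.019 between the lpr groups. Without both Cy5 MRL/+ mice, MRL/lpr against MRL/+ became -0.033 for Hspa5, -0.56 for Canx and -0.0999 for Dnajb9, and Fn14ko against MRL/+ became -0.16 for Hspa5, -0.25 for Calr and -0.18 for Canx.

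Leaving out 1 mouse moved MRL/lpr against MRL/+ between -0.053 and 0.28 for Hspa5 and -0.040 and 0.17 for Dnajb9. It moved Fn14ko against MRL/+ between -0.11 and 0.068 for Ddit3, -0.18 and 0.15 for Hspa5, -0.12 and 0.16 for Calr and -0.18 and 0.027 for Dnajb9. It moved MRL/lpr against Fn14ko between -0.21 and 0.31 for Atf4, -0.37 and 0.065 for Xbp1, -0.055 and 0.24 for Hspa5 and -0.29 and 0.063 for Hsp90b1. Replicate numbers are shared between the groups but marked no common source, and correlations of same-numbered deviations ran from -0.276 to 0.477, with 3 of 12 over 0.1. The replicate block raised the calls over all genes from 2492 to 5597, from 165 to 1209 and from 790 to 1624, and mice were most like their own number in 4, 0 and 2 of 8 by pair of groups. Over the settings the calls in MRL/lpr against MRL/+ ran from 22 of 29149 genes without the filter to 5597 of 17302.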
